A study of Mus musculus with 12 samples.

Results

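Laminin chains are the subunits of the laminins, the cross-shaped glycoproteins of the basement membrane. The 9 chains described here, Lama1, Lama2, Lama3, Lama4, Lama5, Lamb1, Lamb2, Lamc1 and Lamc3, were taken by gene symbol from a table of read counts that lists 56860 named genes. All 9 chains passed the filter on low counts and were among the 16600 genes tested. A laminin is a trimer of an alpha, a beta and a gamma chain, and the alpha chain carries most of the sites that bind integrins and dystroglycan on the cell surface. In the brain, laminins are laid down mainly at blood vessels and under the meninges, and astrocytes, pericytes and endothelial cells each make their own chains. Oligodendrocytes respond to laminin through integrins and dystroglycan while they mature and form myelin.

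Primary oligodendrocytes (OLs) of C57BL/6J mice were treated for 48 h with siEgr2, directed at Egr2, or with the scrambled control siNC, and RNA was sequenced in 6 libraries per group. The study's methods describe O4-positive cells, captured with beads from the cortex of pups aged 6 to 7 days after meninges and vessels were taken off, whereas the labels give the medial prefrontal cortex as tissue. The reagent is called both an siRNA and an interfering plasmid in the study. The sources used here do not say whether the 6 libraries of a group came from separate cultures, so p-values measure the spread between these libraries, which may be technical.

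The siNC libraries held 28682946 to 39383014 counts each, and the siEgr2 libraries 8034251 to 16683677. The 18S ribosomal RNA gene Rn18s-rs5 took 0.142% to 1.05% of the counts in the siNC libraries and 10.5% to 16.5% in the siEgr2 libraries. Depth, this share and treatment separate the libraries in the same way, and a part of the ribosomal share in any difference between the groups cannot be told apart from the treatment. Levels are given as CPM after scaling with trimmed means of M values (TMM), and every log2 fold change is siEgr2 minus siNC, so negative values are lower in siEgr2.

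Egr2, the targeted transcription factor, was measured first as a check of the labels. Its lowest, median and highest levels were 3.89, 5.19 and 7.06 CPM in the siNC libraries and 2.22, 3.93 and 4.86 CPM in the siEgr2 libraries. The siEgr2 libraries lay toward the lower end, but the ranges of the groups overlapped, so the level of Egr2 does not separate the libraries by their labels. The mean went from 5.35 ± 1.27 to 3.77 ± 1.01 CPM (SD, n = 6 each), with a log2 fold change of -0.51 and a standard error (SE) of 0.21. The quasi-likelihood test of edgeR, adjusted after Benjamini and Hochberg, gave an adjusted p of 0.0981, above the threshold of 0.05, and a two-sided exact permutation test on log2 of CPM plus 0.5 gave p = 0.0433. Scaling by library size only gave an adjusted p of 0.0144 and a log2 fold change of -0.70.

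The labelled cell type was compared with marker genes. The oligodendrocyte markers Mbp, Cnp, Mag, Mobp and Mog were present in every library, and Mbp and Cnp stood at 1830.0 and 1629.9 CPM on average in the siNC group. The precursor markers Gpr17, Olig2, Pdgfra and Cspg4 were present as well, at 791, 635, 522 and 223 CPM. The cultures therefore held cells with oligodendrocyte transcripts as labelled. They also held astrocyte transcripts, with the astrocyte filament gene Gfap at 4777 CPM on average in the siNC group.

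The laminin chains that differed between the groups were all lower in siEgr2, and the largest difference was that of Lama5. The log2 fold change was negative for 8 of 9 chains, and for Lama4 it was positive after TMM scaling and negative when scaled by library size only. Calls required an adjusted p below 0.05 together with a log2 fold change beyond 0.5 in size. Of the 9 chains, 3 were called lower, Lama5, Lamb2 and Lamc3, where 844 of the 16600 tested genes (5.08%) were called lower. None was called higher, a count of 0 also at an unadjusted p under 0.05 and with DESeq2 and limma-voom, where 437 tested genes (2.63%) were called higher. Without the fold change threshold, 6 chains passed an adjusted p under 0.05, all of them lower, against 1877 tested genes (11.3%) in that direction and 3300 (19.9%) in either. In 3 chains, Lama5, Lamb2 and Lamc1, every siEgr2 library lay below every siNC library, which held for 1162 tested genes (7%). The median log2 fold change over the 9 chains was -0.34, beside a median of 0.00 over all tested genes. The chains were chosen with earlier results of these data known, so these comparisons with all tested genes are a description and not independent support. In bulk RNA, fewer cells that make a chain cannot be told apart from less of its RNA per cell.

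Scaling by library size only, without TMM, moved the median log2 fold change of all tested genes to -0.18 and the share of lower among all calls from 65.9% to 88.0%. Lama1 and Lama2 then passed both thresholds at -0.53 and -0.52, which made 5 chains called lower, and 10.5% of all tested genes were called lower. Relative to that shifted median, Lama1 and Lama2 stood at -0.35 and -0.34.

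**Figure D1:**
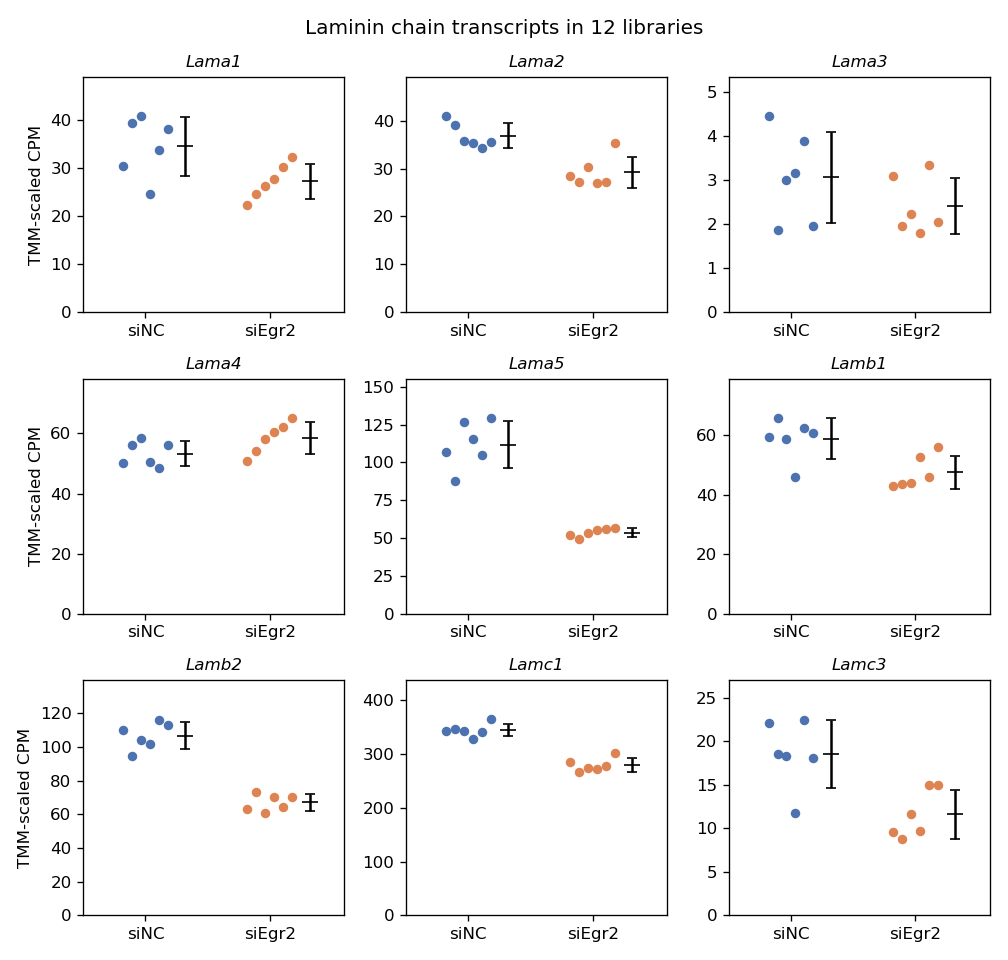
Level of each laminin chain in 12 libraries, in TMM-scaled CPM on axes that start at 0, with 1 point per library and the mean ± SD of 6 libraries beside each group. The siEgr2 points of Lama5 lie between 49.2 and 56.3 CPM, below all siNC points, and those of Lamb2 and Lamc1 are also separate from the siNC points.

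Among the lists of other cell types, those of astrocytes and mural cells had most of their tested genes called lower in siEgr2. The remaining lists did not, and the part of any cell type in the differences of the chains was not tested. Of 7 astrocyte markers, 5 were called lower, Gfap, Aqp4, Aldh1l1, Slc1a3 and Slc1a2. Over all tested genes, 5.08% were called lower and 2.63% higher. The lowest, median and highest sums of the astrocyte markers were 7996, 8398 and 8693 CPM in the siNC libraries and 5085, 5510.2 and 5766 CPM in the siEgr2 libraries. The groups did not overlap in this sum, and its most abundant gene was Gfap, which went from 4777 to 3242 CPM. Of 7 mural cell markers, 5 were tested and all 5 were called lower, Pdgfrb, Rgs5, Vtn, Acta2 and Tagln, of which Pdgfrb was lost without siNC replicate 2. Their list summed to 279.5, 291 and 319 CPM in the siNC libraries and 165, 193 and 214 CPM in the siEgr2 libraries, again without overlap, and Tagln was the most abundant gene. The pericyte markers Kcnj8 and Abcc9 of the same list were near 0, at 0.226 and 0.101 CPM on average in the siNC group.

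The fibroblast and meningeal markers had 2 of 7 genes called lower, Igf2 and Slc6a13. The Slc6a13 call was lost with limma-voom and in 6 of 12 fits that left out a library. These fits were those without siNC replicate 3, 5 or 6 or siEgr2 replicate 1, 2 or 4. The list summed to 906, 1216 and 1545 CPM in the siNC libraries and 904, 1039 and 1153 CPM in the siEgr2 libraries, with overlap. Its most abundant gene, Col1a1, had an adjusted p of 0.327 by edgeR, at a log2 fold change of -0.16. Endothelial markers were near 0. Their 7 genes summed to 5.56 to 8.43 CPM in siNC and 2.47 to 8.15 CPM in siEgr2, Cdh5 was the most abundant, Cldn5 had no count in any library, and 1 gene, Flt1, was called lower. The 4 Schwann cell markers summed to at most 7.23 CPM and the 6 microglia markers to at most 5.80 CPM, with Prx and Tmem119 as the most abundant genes, and Aif1 of the microglia list had no count in any library. None of these Schwann cell or microglia genes was called by edgeR, DESeq2 or limma-voom, with 0 at an unadjusted p under 0.05.

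The neuron markers had 1 of 5 genes called lower, Stmn2, and their sum, mostly Tubb3, was 135, 139 and 153 CPM in the siNC libraries and 117, 124 and 127 CPM in the siEgr2 libraries. The neuron markers did not move together, since Syt1, Rbfox3 and Snap25 had positive log2 fold changes of 0.31, 0.41 and 0.40, with adjusted p of 0.0266, 0.233 and 0.318 by edgeR. The median over the 5 was 0.31. Of the oligodendrocyte markers Mbp, Cnp, Mag, Mobp and Mog, none was called by edgeR, DESeq2 or limma-voom, while 4 were lower at an unadjusted p under 0.05. Mbp, which encodes myelin basic protein, had a lowest, median and highest level of 1613, 1834 and 2009 CPM in the siNC libraries and 1445, 1494 and 1584 CPM in the siEgr2 libraries (log2 fold change -0.28, SE 0.04, adjusted p = 0.000228 by edgeR). Of the 4 precursor markers, Pdgfra and Cspg4 were called higher, calls that were lost when scaling by library size only, and the list, with Gpr17 as its most abundant gene, summed to 2103, 2168 and 2266 CPM in the siNC libraries and 2593, 2662 and 2735 CPM in the siEgr2 libraries. Neither Mbp nor the precursor sum overlapped between the groups.

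Lama5, the alpha chain found most widely in mature basement membranes, gave the largest difference among the chains. The gene lies on chromosome 2 from 180176373 to 180225859 on the minus strand of GRCm38, with 79 exons in its longest transcript and 11.4 kb of merged exons. Its lowest, median and highest levels were 87.7, 111 and 129 CPM in the siNC libraries and 49.2, 54.2 and 56.3 CPM in the siEgr2 libraries. All 6 siEgr2 libraries lay below all 6 siNC libraries, and the siEgr2 libraries also lay close together, with a coefficient of variation of 5.16% against 13.9% in the siNC group. The mean went from 112 ± 15.5 to 53.6 ± 2.77 CPM (SD, n = 6 each), which is 2.08 times as high in siNC. The log2 fold change was -1.06 (SE 0.0807, adjusted p = 1.99e-07 by edgeR), and it ranked 312 of 16600 from the lowest among the tested genes. These levels rest on 2871 to 5407 counts per library in siNC and 437 to 862 in siEgr2.

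Lama2, the alpha chain of muscle and peripheral nerve laminin, whose loss causes a congenital muscular dystrophy with white matter changes, lies on chromosome 10 from 26980036 to 27619758 on the minus strand, with 65 exons in its longest transcript and 16.3 kb of merged exons. From lowest through median to highest, its levels were 34.3, 35.7 and 41.0 CPM in the siNC libraries and 26.9, 27.9 and 35.4 CPM in the siEgr2 libraries. Of the siEgr2 libraries, 5 lay below the lowest siNC library, and replicate 6 reached into the siNC range. The mean went from 36.9 ± 2.61 to 29.3 ± 3.26 CPM (SD, n = 6 each), with a log2 fold change of -0.33 (SE 0.0760, adjusted p = 0.00496 by edgeR), so it passed the p threshold and not the fold change threshold. After thinning to the smallest library total, Lama2 no longer passed the p threshold, with an adjusted p of 0.0589.

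Lama1, the alpha chain of the first basement membranes of the embryo, lies on chromosome 17 from 67697259 to 67822647 on the plus strand, with 63 exons in its longest transcript and 9.68 kb of merged exons. Lowest, median and highest levels of the chain were 24.6, 35.8 and 40.7 CPM in the siNC libraries and 22.3, 27.0 and 32.3 CPM in the siEgr2 libraries. The groups overlapped, and the lowest siNC library, replicate 4, lay below most siEgr2 libraries. The mean was 34.4 ± 6.16 CPM in siNC and 27.2 ± 3.64 CPM in siEgr2 (SD, n = 6 each). The log2 fold change was -0.34 (SE 0.12, adjusted p = 0.0565 by edgeR), just above the threshold. Lama1 passed the p threshold without siNC replicate 4 (0.00783) or siEgr2 replicate 6 (0.0351), with DESeq2 (0.0400), with no filter on low counts (0.0341) and with library size scaling (0.00284).

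Lama4, the alpha chain known from the walls of small blood vessels, lies on chromosome 10 from 38965515 to 39110188 on the plus strand, with 38 exons in its longest transcript and 12.1 kb of merged exons. For this chain, lowest, median and highest levels were 48.4, 53.3 and 58.4 CPM in the siNC libraries and 50.8, 59.2 and 65.2 CPM in the siEgr2 libraries. The ranges overlapped over most of their length, with the siEgr2 median above the siNC median. Lama4 was the one chain with a positive log2 fold change, 0.13 (SE 0.0686, adjusted p = 0.202 by edgeR), and scaling by library size only turned it to -0.05. Against the shifted median of all genes under that scaling it stood at 0.13.

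Lama3, the alpha chain of epithelia such as the skin, lies on chromosome 18 from 12333819 to 12583013 on the plus strand, with 75 exons in its longest transcript and 10.7 kb of merged exons. It was the chain with the fewest counts, 61 to 153 per library in siNC and 21 to 46 in siEgr2. Its levels were 1.86 to 4.45 CPM in siNC and 1.79 to 3.33 CPM in siEgr2, and the groups overlapped. With a log2 fold change of -0.35 (SE 0.25, adjusted p = 0.370 by edgeR), no difference was detectable at this depth.

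Of the beta chains, Lamb2 gave the larger difference. This chain is known from the neuromuscular junction and the kidney filter, and its gene lies on chromosome 9 from 108479736 to 108490530 on the plus strand, with 33 exons in its longest transcript and 6.08 kb of merged exons. The lowest, median and highest levels of Lamb2 were 95.0, 107 and 116 CPM in the siNC libraries and 61.0, 67.4 and 73.3 CPM in the siEgr2 libraries. The groups did not overlap, and the spread within each was small, at 7.43% and 7.28% of the mean. The mean went from 107 ± 7.94 to 67.1 ± 4.88 CPM (SD, n = 6 each), with a log2 fold change of -0.67 (SE 0.0601, adjusted p = 1.04e-06 by edgeR), at rank 968 of 16600 from the lowest.

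Lamb1, the beta chain that forms early in development and occurs in many laminins, lies on chromosome 12 from 31265234 to 31329644 on the plus strand, with 33 exons in its longest transcript and 9.92 kb of merged exons. Its lowest, median and highest levels were 46.1, 60.1 and 65.9 CPM in the siNC libraries and 43.1, 44.9 and 56.0 CPM in the siEgr2 libraries. The low siNC value was replicate 4, which stood apart from the other siNC libraries, and it lay within the siEgr2 range. The log2 fold change was -0.31 (SE 0.0876, adjusted p = 0.0192 by edgeR), past the p threshold in this fit and short of the fold change threshold.

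Lamc1, the gamma chain of most laminins, had the highest level of the 9 chains per length. Its gene lies on chromosome 1 from 153218922 to 153332786 on the minus strand, with 28 exons in its longest transcript and 8.27 kb of merged exons. The lowest, median and highest levels were 329, 343 and 364 CPM in the siNC libraries and 266, 276 and 302 CPM in the siEgr2 libraries. All siEgr2 libraries lay below all siNC libraries, and the chain varied least within the groups, by 3.32% and 4.61% of the mean. The mean went from 345 ± 11.4 to 279.6 ± 12.9 CPM (SD, n = 6 each). With a log2 fold change of -0.30 (SE 0.0367, adjusted p = 2.19e-05 by edgeR), the difference was larger than the spread between libraries but smaller than the fold change threshold.

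Lamc3, a gamma chain known from the surface of the cortex and the retina, lies on chromosome 2 from 31887291 to 31946539 on the plus strand, with 28 exons in its longest transcript and 6.09 kb of merged exons. Its levels, as lowest, median and highest, were 11.7, 18.4 and 22.5 CPM in the siNC libraries and 8.79, 10.6 and 15.0 CPM in the siEgr2 libraries. The siEgr2 libraries were lower on the whole, but the lowest siNC library, replicate 4, lay among them, so the groups overlapped. The mean went from 18.5 ± 3.88 to 11.6 ± 2.77 CPM (SD, n = 6 each), with a log2 fold change of -0.69 (SE 0.17, adjusted p = 0.00868 by edgeR).

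Whether the counting used strand is not given in the sources used here, so the counts of chains with an antisense partner are uncertain. In GENCODE M21 on GRCm38, exons on the opposite strand overlapped 6.27% of the merged exons of Lamc3 (Gm13441), 3.86% of Lama2 (Gm48084) and 1.83% of Lama3 (Gm29200). These partners had mean levels of 0.224, 0.0396 and 0 CPM. The other 6 chains shared no exon base with another annotated gene.

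Lamb3, a beta chain that joins Lama3 in skin laminin, did not pass the filter on low counts, with 2 to 21 counts per library in siNC and 0 to 5 in siEgr2.

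Levels of different chains were compared per kilobase of merged exons, as TMM-scaled CPM per kb. In the siNC group the order of the means was Lamc1 at 41.7 ± 1.38, Lamb2 at 17.6 ± 1.31, Lama5 at 9.81 ± 1.36, Lamb1 at 5.94 ± 0.684 and Lama4 at 4.42 ± 0.340 CPM per kb (SD, n = 6). Lama1 at 3.56 ± 0.636, Lamc3 at 3.04 ± 0.637, Lama2 at 2.26 ± 0.160 and Lama3 at 0.284 ± 0.0955 CPM per kb followed. The first 3 and the last chain were each separate from their neighbours in every library, while the ranges of neighbours from Lamb1 down to Lama2 overlapped. In the siEgr2 group Lama5 stood at 4.71 ± 0.243 CPM per kb, overlapping the ranges of Lamb1 at 4.79 ± 0.554 and Lama4 at 4.85 ± 0.440. So, by merged exons, the alpha chain that led in the siNC group was no longer apart from Lama4 in the siEgr2 group. With the longest transcript as length, Lama4 stood at 8.82 CPM per kb in siNC and 9.67 in siEgr2, beside 9.81 and 4.71 for Lama5. In siNC replicate 2, Lama4 then made up 36.6% of the summed alpha chains and Lama5 30.4%.

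**Figure D2:**
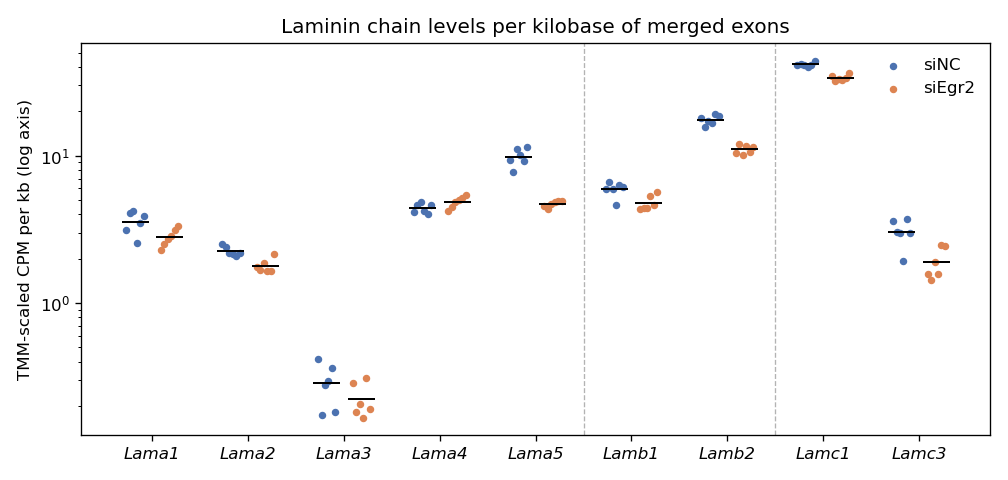
Level of each laminin chain per kilobase of merged exons, in TMM-scaled CPM per kb on a log axis, with 1 point per library, a black line at the mean of 6 libraries, and dashed lines between the alpha, beta and gamma chains. Lamc1 lies highest at 41.7 CPM per kb in siNC, Lama3 lowest at 0.284, and the siEgr2 points of Lama5 lie at the level of Lama4.

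The share of each chain within its kind is free of the scaling between libraries. Of the summed alpha chains per kb, the lowest, median and highest Lama5 shares in percent were 40.6, 48.6 and 52.4 in the siNC libraries and 30.8, 32.7 and 34.8 in the siEgr2 libraries. The share went from 48.2 ± 4.11 to 32.8 ± 1.27% (SD, n = 6 each), and the groups did not overlap. The share of Lama4 went the other way, from 21.8 ± 1.37 to 33.7 ± 0.811%, also without overlap. The shares of Lama1, Lama2 and Lama3 overlapped between the groups, at 17.5 ± 2.75, 11.2 ± 1.35 and 1.42 ± 0.523% in siNC and 19.5 ± 1.15, 12.5 ± 1.06 and 1.57 ± 0.446% in siEgr2.

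Ratios of single chains within a library, chosen after their values were seen and given without a test, followed these shares. Lama5 over Lama4 per kb had a lowest, median and highest ratio of 1.66, 2.30 and 2.44 in the siNC libraries and 0.916, 0.964 and 1.08 in the siEgr2 libraries. Every siEgr2 library lay below every siNC library, and siNC replicate 2 and siEgr2 replicate 1 lay nearest to the other group. The size of this ratio rests on the gene length used, and it is lower in every library with the longest transcript. Lama4 has 12.1 kb of merged exons and 6.05 kb in its longest transcript, and Lama5 11.4 kb by either. Lama5 over Lama2 was 4.38 ± 0.783 in siNC and 2.65 ± 0.259 in siEgr2, without overlap. Lamb2 over Lamb1 was 2.99 ± 0.396 and 2.32 ± 0.238, and Lamc3 over Lamc1 was 0.0729 ± 0.0150 and 0.0560 ± 0.0119, both with overlap. Lamb2 made up 74.7 ± 2.60% of the beta chains in siNC and 69.7 ± 2.07% in siEgr2, and Lamc1 93.2 ± 1.31% and 94.7 ± 1.06% of the gamma chains.

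Summed over the chains of a kind, the alpha chains went from 20.3 ± 1.68 to 14.4 ± 1.14 CPM per kb, the beta chains from 23.5 ± 1.55 to 15.8 ± 1.17 and the gamma chains from 44.7 ± 1.71 to 35.7 ± 1.88 (SD, n = 6 each). None of the 3 sums overlapped between the groups. The gamma sum was 2.21 ± 0.158 times the alpha sum in siNC and 2.49 ± 0.144 times in siEgr2, without overlap. With the length of the longest transcript in place of merged exons, Lamb1 at 10.2 CPM per kb in siNC came before Lama5 at 9.81. The ratio of gamma to alpha sums then overlapped, at 1.84 ± 0.115 and 1.89 ± 0.115. The Lama5 share was then 37.1 ± 3.61% in siNC and 23.0 ± 0.976% in siEgr2, again without overlap. Lama4 was then at 33.5 ± 1.59% and 47.1 ± 1.04%, so the distance between Lama4 and Lama5 in both groups rests on the gene length used.

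Of 8 laminin receptor genes, 3 were called lower, Itga6, Itga3 and Adgrg6, and 0 higher, which was also the count of higher genes at an unadjusted p under 0.05 in edgeR's test and of higher calls with DESeq2 and limma-voom. Over all tested genes, 5.08% were called lower and 2.63% higher, so 0 higher among 8 genes is near the share over all genes. The median log2 fold change of the receptor genes was -0.50. Itga6, the alpha subunit of the main laminin integrins, had a lowest, median and highest level of 101, 106 and 117 CPM in the siNC libraries and 58.6, 59.7 and 63.4 CPM in the siEgr2 libraries. The groups lay far apart for their spread (log2 fold change -0.82, SE 0.05, adjusted p = 5.99e-09). Itga3, another laminin-binding integrin subunit, went from 23.1 to 13.8 CPM (log2 fold change -0.75, SE 0.12, adjusted p = 0.000256). Adgrg6, an adhesion receptor that binds laminin and is needed for myelination by Schwann cells, went from 75.8 to 47.9 CPM (log2 fold change -0.66, SE 0.05, adjusted p = 3.16e-07). Neither Itga3 nor Adgrg6 overlapped between the groups.

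Itga7, Dag1 and Itgb1 passed an adjusted p under 0.05 in edgeR's test with smaller log2 fold changes. Dag1, which encodes dystroglycan, had a lowest, median and highest level of 358, 437 and 444 CPM in the siNC libraries and 332, 347 and 354 CPM in the siEgr2 libraries, without overlap, and a log2 fold change of -0.30. Itgb1, the common beta subunit and the most abundant gene of the list, gave -0.12 with overlapping ranges, from 729 to 670.0 CPM. Itga7 lay close to the fold change threshold at -0.48, and leaving out siNC replicate 2, siEgr2 replicate 2 or siEgr2 replicate 4 put it past that threshold. Itgb4 and Bcam had adjusted p of 0.442 and 0.449.

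Of the genes that build the laminin-binding sugar chain of dystroglycan, Pomgnt1, a transferase of this chain, went from 69.5 to 64.5 CPM with overlapping ranges (log2 fold change -0.11, SE 0.05, adjusted p = 0.181 by edgeR). B4gat1, which primes the part that laminin binds, varied widely between libraries of a group, from 1.95 to 52.3 CPM within siNC and from 1.98 to 33.3 CPM within siEgr2.

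Of the dystrophin complex, which links dystroglycan to the cytoskeleton, 10 genes were tested. Their median log2 fold change was -0.17, and at an adjusted p under 0.05 by edgeR 4 were lower and 1 higher. That higher gene, Sgcd, a sarcoglycan, was called higher, where 2.63% of all tested genes were. Its levels, from lowest through median to highest, were 1.74, 2.38 and 2.99 CPM in the siNC libraries and 3.21, 3.31 and 4.58 CPM in the siEgr2 libraries. All siEgr2 libraries lay above all siNC libraries (log2 fold change 0.60, SE 0.18, adjusted p = 0.0285 by edgeR), on 35 to 52 counts per library in siEgr2. The Sgcd call was lost in 5 of 12 fits that left out a library, without siNC replicate 1, 3 or 6 or siEgr2 replicate 5 or 6. Scaling by library size only also lost it. The most abundant gene of the list, Dtna, went from 244 to 213 CPM with a log2 fold change of -0.19.

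Partners of laminin in the basement membrane were lower in several genes. Of 14 genes, 6 were called lower, Nid2, Hspg2, Col4a6, Npnt, Col4a5 and Nid1, and 0 higher, also at an unadjusted p under 0.05 in edgeR's test and with DESeq2 and limma-voom. Over all tested genes, 5.08% were called lower and 2.63% higher, so 0 higher among 14 genes is near the share over all genes. The median log2 fold change was -0.47. Nid2, a nidogen, which joins laminin to collagen IV, had a lowest, median and highest level of 79.1, 90.5 and 102 CPM in the siNC libraries and 42.6, 50.1 and 60.1 CPM in the siEgr2 libraries. The groups did not overlap (log2 fold change -0.85, SE 0.08, adjusted p = 2.82e-06). Nid1, the other nidogen, went from 146 to 101 CPM with overlap (log2 fold change -0.53, SE 0.13, adjusted p = 0.0120), and its call was lost without siNC replicate 2 or siEgr2 replicate 1 or 2.

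Hspg2, which encodes the proteoglycan perlecan, had a lowest, median and highest level of 179, 213 and 240.3 CPM in the siNC libraries and 128, 138 and 161 CPM in the siEgr2 libraries, without overlap (log2 fold change -0.62, SE 0.07, adjusted p = 1.23e-05 by edgeR). The collagen IV genes Col4a5 and Col4a6, which are transcribed from a shared promoter region, went from 208 to 137 CPM and from 98.6 to 62.9 CPM, with log2 fold changes of -0.60 and -0.65 and no overlap in either. Col4a1, the most abundant gene of the list, and its partner Col4a2 gave -0.37 and -0.42 with adjusted p of 0.00502 and 0.00235, short of the fold change threshold and with overlapping ranges. Npnt, an integrin ligand of basement membranes, went from 12.8 to 8.22 CPM, without overlap (log2 fold change -0.63, SE 0.14, adjusted p = 0.00329). Agrn, which encodes agrin, gave -0.12 with an adjusted p of 0.0764.

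Netrins share their amino-terminal domains with laminin chains. Of 6 netrin genes, 5 were tested, 4 were called lower and 0 higher. Over all tested genes, 5.08% were called lower and 2.63% higher, so 0 higher among 5 genes is near that share. At an unadjusted p under 0.05 in edgeR's test, 0 netrin genes were higher as well. DESeq2 gave 4 lower and 0 higher and limma-voom 3 lower and 0 higher. Ntn1, a guidance cue for axons and oligodendrocyte precursors and the most abundant of the list, had a lowest, median and highest level of 91.3, 112 and 141 CPM in the siNC libraries and 70.7, 81.7 and 87.1 CPM in the siEgr2 libraries. The groups did not overlap (log2 fold change -0.52, SE 0.10, adjusted p = 0.00272 by edgeR). Ntn4, a netrin that binds laminin networks, went from 48.6 to 33.1 CPM, without overlap (log2 fold change -0.56, SE 0.08, adjusted p = 0.000183). Ntn3 and Ntng1 had few counts, with log2 fold changes of -0.54 and -0.60 and adjusted p of 0.0270 and 0.0369. Of these 4 calls, that of Ntn4 held in all 12 fits that left out a library but was lost after thinning. Ntn1 and Ntn3 were called in 8 of 12 such fits each and Ntng1 in 7 of 12. Ntn1 was lost without siNC replicate 3 or 6 or siEgr2 replicate 4 or 5, Ntn3 without siNC replicate 4 or siEgr2 replicate 2, 3 or 4, and Ntng1 without siNC replicate 1 or 3 or siEgr2 replicate 3, 5 or 6.

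For the chains with the highest levels per kb, Lamc1 and Lamb2, the genes with the most similar levels over the 12 libraries were found by Pearson's r of log2 of CPM plus 0.5 among 12399 other genes whose log2 CPM averaged 2 or more. For Lamc1 these were Nuak1, Myorg and Itga5, with r of 0.992, 0.979 and 0.975. For Lamb2 they were Gfap, Cybrd1 and Sfxn5, with r of 0.984, 0.981 and 0.981. The 12 libraries form the treatment groups, so r holds the difference between groups as well as the spread within them, and it is given as a description without a p. The log2 fold changes of these genes were -0.57, -0.90, -0.90, -0.56, -0.90 and -0.49 in the order named.

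Egr2 belongs to a family of zinc finger factors that bind GC-rich DNA, so the RefSeq promoters of the chains (GRCm38.p6) were searched for the letters GCGNGGGCG on either strand. Windows were on hand for 4 of 9 members, Lama2, Lama5, Lamb1 and Lamb2, and in each the 250 bases before the start of a RefSeq transcript were read. The Lama2 window, 27616943 to 27617192 of chromosome 10, lies inside the GENCODE span of the gene, and those of Lamb2 and Lamb1 run past the GENCODE gene start. Lamb1 held the motif 1 time, on the strand opposite to the gene, at bases 31265219 to 31265227 of chromosome 12, and the windows of Lama5, Lamb2 and Lama2 held 0. Over all 32851 promoter windows of this length, 4.70% held it. The windows differed in base composition, with 72.4% G and C in Lama5, 62.0% in Lamb1, 47.2% in Lama2 and 43.6% in Lamb2, beside a median of 52.4% over all windows. The windows of Lama5 and Lamb2, called lower and without overlap between the groups, and of Lamb1, which holds the motif, are printed 5′ to 3′ along the gene, as far as the first exon annotated in GENCODE. They are chr2:180225860-180226109 on the minus strand, chr9:108479612-108479735 on the plus strand and chr12:31265043-31265233 on the plus strand, and capitals mark the motif as it reads on the printed strand. A match is a description of letters and not a binding site.
Lama5: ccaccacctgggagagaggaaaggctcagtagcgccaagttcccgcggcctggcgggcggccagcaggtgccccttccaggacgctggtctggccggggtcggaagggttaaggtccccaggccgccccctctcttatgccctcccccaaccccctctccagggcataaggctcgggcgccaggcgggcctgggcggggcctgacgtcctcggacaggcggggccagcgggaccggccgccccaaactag
Lamb2: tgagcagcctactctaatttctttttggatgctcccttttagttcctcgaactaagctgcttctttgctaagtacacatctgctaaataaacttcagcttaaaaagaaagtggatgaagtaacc
Lamb1: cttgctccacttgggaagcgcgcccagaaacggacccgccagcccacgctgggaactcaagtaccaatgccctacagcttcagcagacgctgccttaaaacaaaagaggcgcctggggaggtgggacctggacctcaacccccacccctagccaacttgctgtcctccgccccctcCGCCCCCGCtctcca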

How the data were processed

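RNA-seq of 6 siNC and 6 siEgr2 libraries was used. The authors deposited raw counts per gene symbol, not normalized, and the labels' processing notes name the genome build mm10. The aligner and the counting program are not given in the sources used here. A total of 1 line lacking a symbol was dropped. Members and gene lists were chosen with earlier results of these data known.

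Analysis of the counts from the authors used edgeR 4.0.16 under R 4.3.3. After filterByExpr and TMM scaling, the groups were compared with the robust quasi-likelihood test without covariates, log2 values took a pseudocount of 0.5, calls took an adjusted p under 0.05 and a fold change over 0.5 in log2, and p-values were adjusted by the Benjamini-Hochberg method over 16600 genes. The biological coefficient of variation was 0.170. The procedure was tested on simulated data. Genes were named if they were members, Egr2, called in a list, the most abundant of a list, or among the 3 genes most like each of the 2 chains highest per kb. Further genes of the lists were named after their values were seen, and some items of the lists are not reported here. Exon lengths and coordinates came from GENCODE M21 on GRCm38. The alternatives were RLE, upper-quartile and library size scaling, DESeq2 1.42.0, limma-voom (limma 3.58.1), other filters and thresholds, a replicate block, thinning to the smallest library total, structural RNA genes left out, each library left out in turn, and the longest transcript as gene length.

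The depth of 8034251 to 39383014 counts per library bounds how well genes with few counts can be measured, such as Lama3 and Sgcd.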

Additional observations from a re-analysis of the deposited data

Results flagged for a closer look

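In 8 of 108 groups of 6 values examined, a single library stood apart from the others of its group by more than the 95% critical value of Dixon's test, and chance marks about 1 in 20 groups, which is 5.40 of 108. Among the chains, Lamb1 was low in siNC replicate 4, at 46.1 CPM against 58.6 to 65.9 CPM in the other 5 libraries. Lamb3 was higher in siNC replicate 2, at 0.641 CPM against 0.0581 to 0.176 CPM in the other 5 libraries, on at most 21 counts. The Lama4 share of the alpha chains was high in siNC replicate 2, at 24.5% against 20.9 to 21.7% in the other 5 libraries, and low in siEgr2 replicate 1, at 32.1% against 33.7 to 34.4% in the other 5 libraries. The ratio of Lama5 to Lama4 stood apart in the same libraries, at 1.66 against 2.25 to 2.44 in the other 5 libraries of siNC and at 1.08 against 0.916 to 0.971 in the other 5 libraries of siEgr2. Outside the chains, Adgrg6 was high in siEgr2 replicate 1, at 50.3 CPM against 46.7 to 48.0 CPM in the other 5 libraries. The summed microglia markers were higher in siNC replicate 2, at 5.80 CPM against 2.99 to 3.61 CPM in the other 5 libraries.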

How the results depend on the processing

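The 3 chains called lower, Lama5, Lamb2 and Lamc3, kept both their direction and their call in all 12 fits that left out a library and under every other scaling, tool and filter run, with a replicate block, after thinning and without structural RNA genes. Over all of these alternatives, the log2 fold change ranged from -1.24 to -1.01 for Lama5, from -0.85 to -0.64 for Lamb2 and from -0.87 to -0.62 for Lamc3, with adjusted p of at most 1.18e-05, 0.000112 and 0.0250. Scaling by library size only gave 5 chains called lower, turned Lama4 to -0.051 (adjusted p = 0.615, over its alternatives 0.0956 to 0.615) and moved Egr2 to -0.70 with an adjusted p of 0.0144, where the other alternatives gave Egr2 an adjusted p of up to 0.214. That scaling leaves in the shift of all genes of -0.18. With a log2 fold change over 1, 1 chain and 0 genes of the related lists were called, and with no fold change threshold 6 chains and 26 genes, against 3 and 16, as the thresholds themselves determine. Of 198 fits of single chains, 195 gave the same direction and the same call, and Lama1, Lama2 and Lama4 under library size scaling gave the others. Of 126 per-length levels recomputed, 116 moved by less than 1 SD, and the other 10 were those of Lama2, Lama4, Lamb1, Lamb2 and Lamc1 with the length of the longest transcript. Of the 16 calls in the related lists, 10 held in all 12 fits that left out a library. Sgcd was also lost with library size scaling, without a filter and with a replicate block, Ntn3 with the block and after thinning, Ntng1 with the block and with limma-voom, and Nid1 and Ntn4 after thinning. The cause was not tested. The sources used here do not say whether the replicate numbers pair the samples. A correlation of deviations over 0.1 was found in 0 of 6 same-number pairs, but a low correlation cannot show that the samples are unpaired. The fit with a replicate block gave 3 chains called lower, 5 with an adjusted p under 0.05 and 13 related genes called, and Lamb1 lost the p threshold there (0.0557). Lama2 lost it after thinning (0.0589), while Lama1 passed it in 5 of 22 alternatives. Lama3 and Sgcd rest on at most 52 counts in each siEgr2 library.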
